A study of Mus musculus with 2 samples.

Results

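Genes of fatty acid oxidation and ketogenesis were followed in mouse liver lacking Tmprss6. The set held 37 genes, chosen by symbol for their place in the pathway. The choice was made with earlier results of these data known, so shares set beside those of all genes are description only. Of the 37 genes, 36 had a probe set that the platform annotation assigned to that gene alone, out of 18193 genes named in this way. All 36 gave a signal above the floor of 17.8 on both arrays. Acsl1 had no such probe set and was not analysed here. Each gene was read from its brightest probe set, and its 62 probe sets in all served as a check on each other.

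Liver RNA came from 2 male mice aged 3 months on a mixed 129Sv/C57BL6 background, taken after an overnight fast. The control group held 1 animal, whose genotype the labels give only as control, and the deficient group held 1 Tmprss6-/- animal made by gene targeting. Tmprss6 encodes matriptase-2, a hepatocyte membrane protease that restrains hepcidin production. Both groups shared the fast, so no fed state was measured, and no source used here says whether the animals were littermates.

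Each genotype is represented by 1 array, so no test could be run and every ratio compares 1 animal with another. Precision is limited by the number of arrays. The error that could be measured was how far probe sets for one gene differ in log2 ratio, and it does not include variation between animals. The SD of this spread was 0.46 for mean log2 signals below 6, 0.37 from 6 to 8, 0.32 from 8 to 10 and 0.18 above 10. A difference over 2 of these SDs is called beyond the spread. Tmprss6 itself read 1868 in the control and 88.1 in the deficient liver, 21.2-fold lower, in the direction of the labels. Hepatocyte markers were present, with 8 of 9 measured and all 8 within 1.5-fold, although Tat, an enzyme of tyrosine breakdown, read 10190 and 6933, a log2 ratio of -0.56 that was beyond the spread.

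In a fasted liver, fatty acids released from fat tissue are taken up, activated to acyl-CoA and carried into mitochondria by the carnitine shuttle. There, successive rounds of β-oxidation shorten the chain to acetyl-CoA, much of which becomes ketone bodies, while peroxisomes handle very long and branched chains. Many of these genes are induced in fasting by the nuclear receptor PPARA.

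The carnitine shuttle and mitochondrial β-oxidation were close between the livers, and the members that differed most belonged to other groups. With 4 and 12 genes, the shuttle and β-oxidation groups are too small to be set apart from all genes by a lack of 1.5-fold differences. Of 36 members, 31 were within 1.5-fold, 5 were lower by 1.5-fold or more in the deficient liver and 0 were higher. The 5 were Acot4, Acot3, Eci2, Vnn1 and Cd36, or 13.9% of the members, against 9.2% of all 12243 genes above the floor on at least 1 array. For the higher direction the background was 8.86%. Only Acot4 and Acot3 passed 2-fold, where the background was 2.78% for lower and 2.38% for higher genes. Members beyond the spread were Acot4, Acot3, Eci2, Vnn1 and Fabp1, each of them lower. The share of all genes beyond the spread was not counted. In the lists of other pathway genes given below, 19 of 117 measured genes were beyond it. Cd36, with a log2 ratio of -0.59, lay just past the 1.5-fold line, and Fabp1, at 1.30-fold, was the next member short of it.

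**Figure D1:**
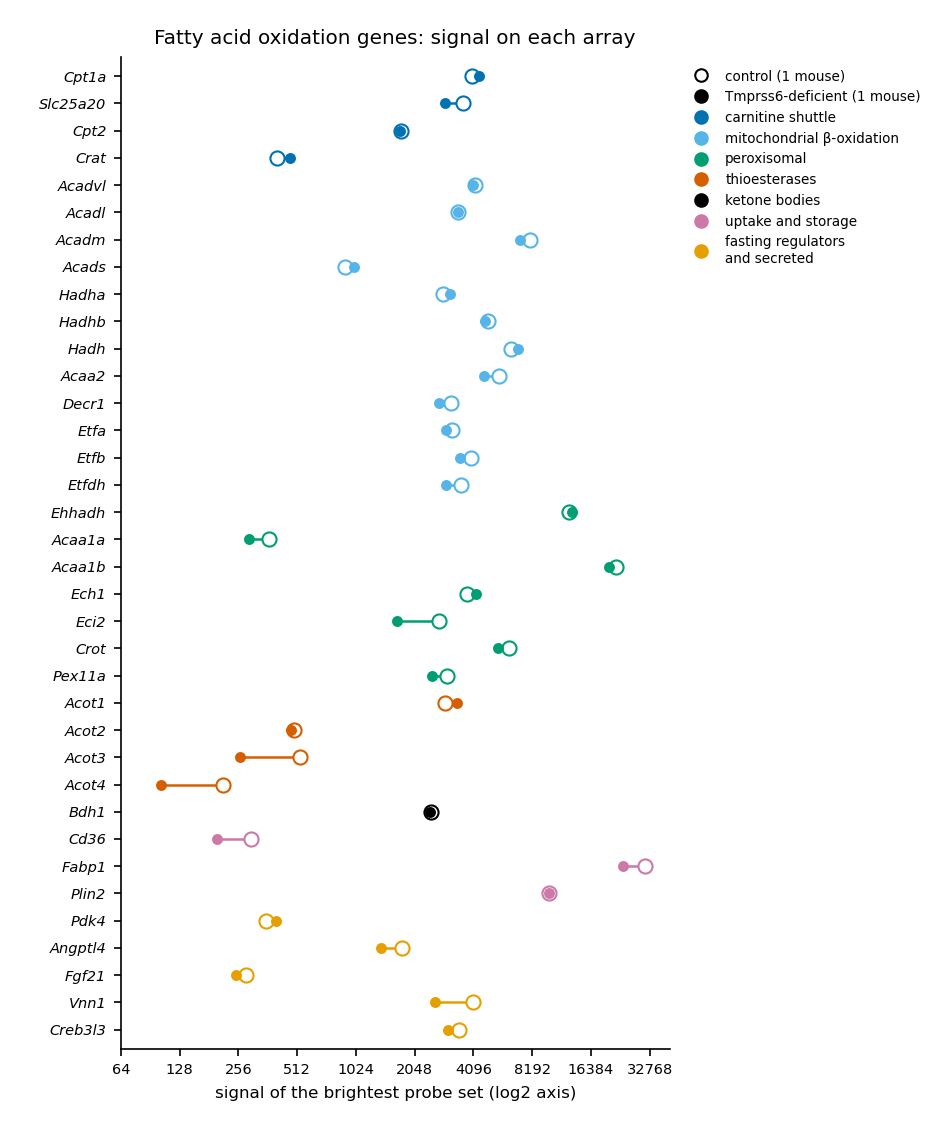
Signal of the brightest probe set of each of the 36 measured genes on the control array (open circles) and the Tmprss6-deficient array (filled circles), on a log2 axis, coloured by role. Most pairs of circles overlap or nearly touch, and the widest gaps are those of Acot4, Acot3, Eci2, Vnn1 and Cd36, with the deficient liver on the lower side.

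The members as a whole sat slightly below 0. Their median log2 ratio was -0.14, with 27 of 36 below 0, against a median of -0.0050 and 50.4% below 0 over all genes. Most members were bright, with 27 of 36 above a mean log2 signal of 10. Among all 1029 genes in that range, 61.1% were below 0 and the median was -0.051, while the 27 members there had a median of -0.13, and 2 of the 27 were lower by 1.5-fold or more against a background of 5.64%. With quantile normalization, which forces the same distribution on both arrays, the median of all members was -0.060 with 22 of 36 below 0. With loess, which removes a trend of the ratio with signal, it was -0.062 with 21 of 36 below 0.

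**Figure D2:**
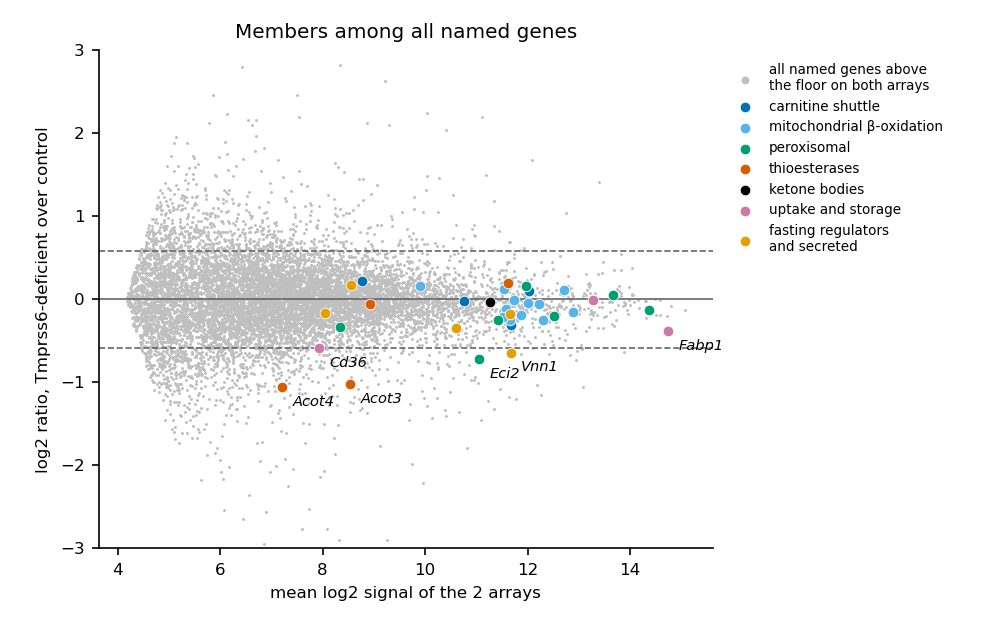
Log2 ratio of Tmprss6-deficient over control liver against the mean log2 signal of both arrays for 10243 named genes above the floor on both (grey) and the members (coloured by role). Dashed lines mark 1.5-fold, and 7 genes lie outside the vertical axis limits. Most members sit at the bright end close to 0, and the 5 members lower by 1.5-fold or more, with Fabp1, are named.

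The carnitine shuttle carries long-chain acyl groups across the mitochondrial membranes, and its 4 members had ratios on either side of 0, with a median of 0.042. Cpt1a, the outer-membrane transferase that sets the rate of entry, read 4051 in the control and 4351 in the deficient liver. Its log2 ratio was 0.10, and all 3 of its probe sets were above 0. Slc25a20, the carrier that exchanges acylcarnitine for carnitine, read 3632 and 2923, a log2 ratio of -0.31 with its other set at -0.14. Cpt2, the inner transferase, read 1744 and 1721. Crat, which moves short acyl groups onto carnitine, read 402 and 470, and its other 2 sets were at -0.23 and 1.06. The ratios of these 4 genes were within 2 spread SDs.

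Mitochondrial β-oxidation enzymes were near level. All 12 were within 1.5-fold, their log2 ratios ran from -0.25 to 0.17, and the median was -0.085, with 9 of 12 below 0. The median was -0.013 with loess and -0.030 with the mean of all probe sets. None of the 12 was beyond the spread. Of all genes, 9.2% were lower and 8.86% higher by 1.5-fold or more, and in the brightest signal range 5.64% were lower. At such shares, few or no calls among 12 genes are likely, so their absence does not set this group apart. The acyl-CoA dehydrogenases take the first step, each for chains of a given length. The very-long-chain enzyme gene Acadvl read 4193 in control and 4057 in deficient liver. The long-chain gene Acadl read 3426 and 3398. The medium-chain gene Acadm read 7945 and 7134, a log2 ratio of -0.16. The short-chain gene Acads read 897 and 1006, a log2 ratio of 0.17, so that no order by chain length larger than the spread was seen.

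The trifunctional protein carries out the later steps for long chains and is built from the products of Hadha and Hadhb. Hadha read 2845 and 3096, and Hadhb read 4860 and 4674, log2 ratios of 0.12 and -0.056. These genes lie head to head on mouse chromosome 5, with RefSeq starts 273 bases apart in assembly GRCm38.p6, so the stretch between them serves as the upstream region of both. The 250 bases before the Hadhb start, on the plus strand at chr5:30155003-30155252, are shown because both subunits of the complex share them.
Hadhb: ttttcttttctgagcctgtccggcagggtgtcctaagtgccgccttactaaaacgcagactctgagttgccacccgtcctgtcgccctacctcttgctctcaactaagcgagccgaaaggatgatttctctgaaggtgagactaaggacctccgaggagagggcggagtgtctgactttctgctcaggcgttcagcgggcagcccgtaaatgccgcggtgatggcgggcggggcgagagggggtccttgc
The short-chain hydroxyacyl dehydrogenase gene Hadh read 6410 and 6924 and the thiolase gene Acaa2 read 5539 and 4650. All 3 sets of Acaa2 were below 0, from -0.25 to -0.17. Of the 3 sets of Hadh, the brighter ones were at 0.11 and 0.10, and a dim set read 104 and 209.

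Electron transfer flavoprotein passes electrons from the dehydrogenases to the respiratory chain. Its subunit genes Etfa and Etfb had log2 ratios of -0.11 and -0.19. Etfdh, the oxidoreductase that accepts those electrons, read 3534 and 2981, a log2 ratio of -0.25, with a dim second set at 0.66. Decr1, a reductase needed for unsaturated chains, read 3150 and 2727, a log2 ratio of -0.21. All 4 lay below 0, and none passed 1.5-fold.

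**Figure D3:**
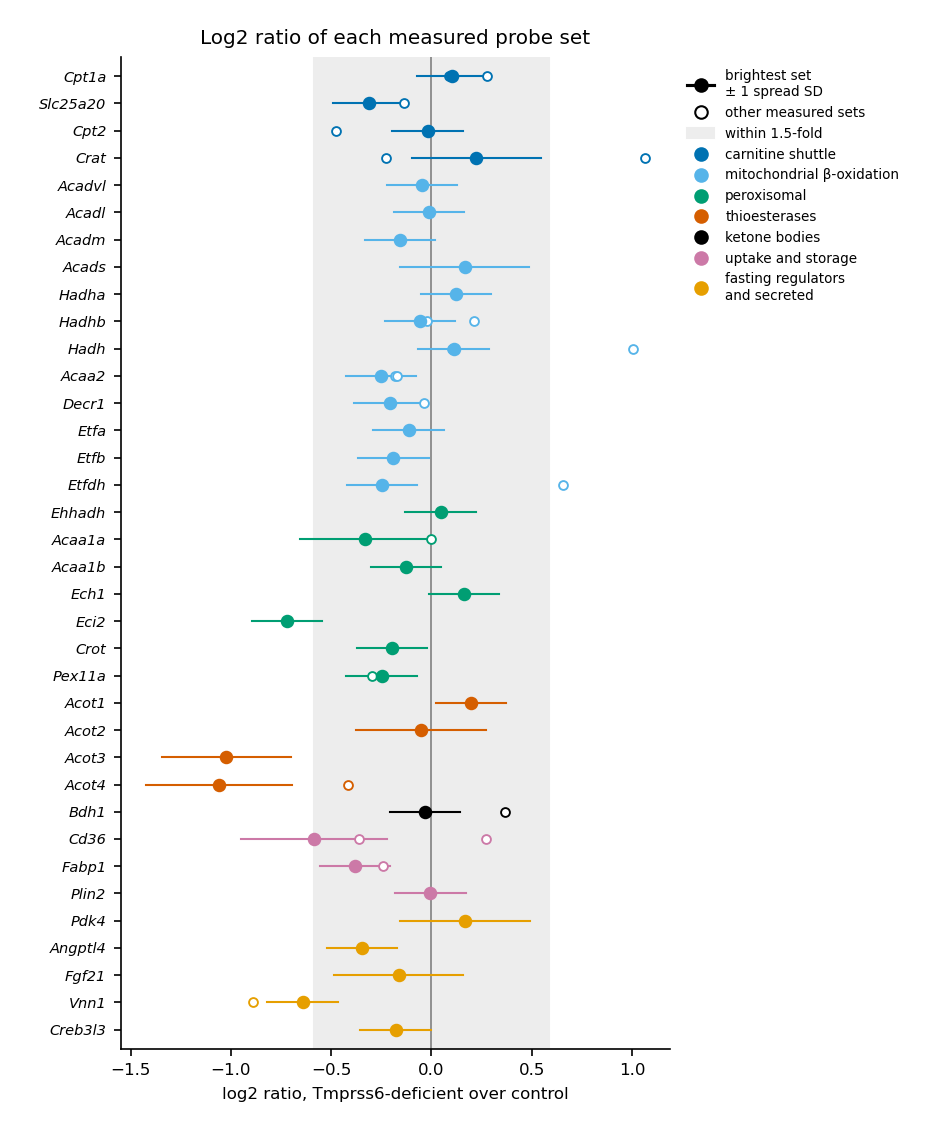
Log2 ratio of Tmprss6-deficient over control for every probe set above the floor on both arrays, by gene. Filled circles are the brightest set with a bar of 1 spread SD between probe sets either side, open circles are other sets, and grey marks ratios within 1.5-fold. Acot4 and Vnn1 have 2 sets each, all below 0, and Acot3 and Eci2 have 1 set each, also below 0. Cd36, Crat, Etfdh, Bdh1, Hadhb and Acaa1a have sets on both sides.

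Peroxisomal members were led by Eci2, with a group median of -0.20 over 7 genes. Of the 7, 1 was lower by 1.5-fold or more, or 14.3% against 9.2% of all genes. The median was -0.10 with quantile normalization and -0.11 with loess. Eci2, an enoyl-CoA isomerase that prepares unsaturated chains and is found in peroxisomes and mitochondria, read 2726 in the control and 1654 in the deficient liver. It was 1.65-fold lower, a log2 ratio of -0.72 against a spread SD of 0.18, on its only probe set. Ech1, another isomerase of unsaturated chains found in both organelles, read 3792 and 4247, on the other side of 0. The other enzymes were near level, as Ehhadh, the bifunctional enzyme of the peroxisomal pathway and a classic PPARA target, read 12718 and 13128, a log2 ratio of 0.046.

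The peroxisomal thiolase genes Acaa1a and Acaa1b are close copies, and 2 further probe sets are annotated to both. Acaa1b read 22134 and 20267, a log2 ratio of -0.13. Acaa1a read 366 and 291, a log2 ratio of -0.33 with its other set at 0.00050. The shared sets were at -0.032 and -0.19, and since such copies can bind each other's probes, the genes are not told apart with certainty. Crot, which exports shortened chains as carnitine esters, read 6242 and 5449. Pex11a, which promotes peroxisome division, read 2999 and 2524, and its sets were at -0.25 and -0.30. A dim set of Crot, above the floor only in the deficient liver, was at least 1.22-fold higher. Acaa1b, Crot and Pex11a were below 0 on each set above the floor on both arrays, all within 1.5-fold.

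The acyl-CoA thioesterases divided within the family. These enzymes release free fatty acid and CoA from acyl-CoA, in the cytosol (Acot1), the mitochondrion (Acot2) and the peroxisome (Acot3 and Acot4). Acot4 read 214 in the control and 103 in the deficient liver and was 2.08-fold lower, a log2 ratio of -1.06. Its second set read 74.6 and 56, in the same direction at 1.33-fold. Acot3 read 528 and 260 and was 2.03-fold lower on its only set, a log2 ratio of -1.02.

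Acot1 and Acot2 did not share that difference. Of the 7 other thioesterases measured, which were not sorted by compartment, 0 passed 1.5-fold. Acot1 read 2935 and 3363, a log2 ratio of 0.20. Acot2 read 493 and 476, a log2 ratio of -0.052. A dim set of Acot2, above the floor only in the deficient liver, read 14.6 and 42.5 and was at least 2.39-fold higher. A set annotated to both Acot1 and Acot2 read 2369 and 2582, a log2 ratio of 0.12. The median of the 4 members, -0.54, falls between the pair of Acot3 and Acot4 and the pair of Acot1 and Acot2, and describes neither. The 4 genes are closely related and may bind each other's probes, which was not tested.

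The 4 thioesterase members lie on the plus strand of mouse chromosome 12 in the RefSeq table of assembly GRCm38.p6. They run in the order Acot2, Acot1, Acot4, Acot3, and the first and last starts are 64.3 kb apart. The members that were lower, Acot4 and Acot3, are thus next to each other in this order, with starts 13.8 kb apart. Only these members were placed on the chromosome, and other thioesterase genes were not. The 250 bases before the start of Acot1 (chr12:84009252-84009501), Acot4 (chr12:84038129-84038378) and Acot3 (chr12:84051894-84052143) are shown to set the near-level gene beside the lower ones.
Acot1: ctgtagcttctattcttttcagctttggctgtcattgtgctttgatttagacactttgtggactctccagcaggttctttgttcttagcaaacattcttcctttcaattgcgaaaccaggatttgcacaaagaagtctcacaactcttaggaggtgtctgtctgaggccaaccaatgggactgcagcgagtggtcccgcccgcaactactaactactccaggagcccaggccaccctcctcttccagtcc
Acot4: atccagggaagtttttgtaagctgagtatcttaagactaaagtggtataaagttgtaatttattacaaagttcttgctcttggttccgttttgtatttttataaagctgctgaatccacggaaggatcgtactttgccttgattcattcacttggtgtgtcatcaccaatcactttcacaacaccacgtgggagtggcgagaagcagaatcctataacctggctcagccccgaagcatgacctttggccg
Acot3: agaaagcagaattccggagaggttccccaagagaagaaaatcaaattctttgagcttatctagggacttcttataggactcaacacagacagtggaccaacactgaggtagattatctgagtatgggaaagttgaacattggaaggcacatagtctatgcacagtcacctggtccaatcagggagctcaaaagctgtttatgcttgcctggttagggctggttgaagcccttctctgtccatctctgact
No capitals appear because none of these windows holds a full match to the repeat described for Fabp1 below. Near matches were not searched for.

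Ketone body genes were close. Bdh1 encodes beta-hydroxybutyrate dehydrogenase, which forms the main circulating ketone body. It read 2497 in the control and 2441 in the deficient liver, a log2 ratio of -0.033, while its dimmer set read 471 and 607, a log2 ratio of 0.37. Acat1, the thiolase that feeds acetoacetyl-CoA into ketogenesis, read 6387 and 5683, with all 3 sets between -0.17 and -0.16. Slc16a1, a transporter of monocarboxylates that include ketone bodies, read 1233 and 1188. Bdh2 was 1.85-fold lower at a dim signal of 50.6 and 27.3, within 2 spread SDs. Slc16a6, another monocarboxylate transporter gene, was above the floor only in the deficient liver, at 22.2, and was at least 1.25-fold higher.

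Of 3 measured uptake and storage genes, 1 was lower by 1.5-fold or more, against 9.2% of all genes. Fabp1, the abundant liver protein that binds fatty acids in the cytosol, read 31166 in the control and 23941 in the deficient liver and was 1.30-fold lower. Its log2 ratio of -0.38 was beyond the spread of 0.18, and its second set read 29297 and 24802, a log2 ratio of -0.24. With quantile normalization and loess the ratio of the brighter set was -0.23 and -0.26, within 2 spread SDs. Plin2, which coats lipid droplets, read 10009 and 9977.

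Cd36, a fatty acid translocase, read 298 and 198 and had a log2 ratio of -0.59 on its brightest set. A second set read 177 and 138, and a dim one read 40.8 and 49.3 in the other direction. Its ratio was within 2 spread SDs. It no longer reached 1.5-fold with the mean of all its sets (-0.23), with probe sets of plain name only (-0.36) or with the floor as a pseudocount (-0.55). Cd36 is also a gene of macrophages and endothelial cells. Of 7 macrophage markers, 2 were lower by 1.5-fold or more and 1 was higher, and their summed signal was 3060 in the control and 2239 in the deficient liver. Of 8 endothelial markers, 2 were lower and 1 was higher, and the sums were 1515 and 1386. Over all genes, 9.2% were lower and 8.86% higher. No marker of either list was below the floor on both arrays, and their part in the Cd36 ratio was not tested. In whole tissue, fewer cells of a type and less RNA per cell cannot be told apart.

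Fabp1 was also the only member whose promoter window held a direct repeat of the kind bound by PPARA with its partner RXR. The repeat, known as DR1, was searched on both strands as 2 copies of AGGNCA with any 1 base between them, where N is any base, from 250 bases before to 50 after the start. RefSeq windows were found for 32 of 37 members, so Vnn1, Angptl4, Decr1, Acaa2 and Crat were not searched. The repeat was present in 1 of 32, or 3.12%, in 0 of 105 windows of the other pathway genes, and in 103 of 27025 windows of all genes, or 0.381%. The stricter form, built of AGGTCA, was in 0 of 32 and in 12 of 27025, and it is contained in the looser form. The 250 bases before the Fabp1 start, on the plus strand at chr6:71199629-71199878 of GRCm38.p6, are shown with the match, on the opposite strand, in capitals.
Fabp1: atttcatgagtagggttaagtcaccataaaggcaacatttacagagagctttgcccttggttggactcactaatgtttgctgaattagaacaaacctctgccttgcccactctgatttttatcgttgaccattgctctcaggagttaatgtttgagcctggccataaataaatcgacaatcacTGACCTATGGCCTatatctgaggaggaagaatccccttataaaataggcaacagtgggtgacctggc
The match spans bases 67 to 55 before the start. It is a description of these letters and does not show binding in these livers.

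Among the fasting regulators and secreted factors, 1 of 5 was lower by 1.5-fold or more, or 20.0% against 9.2% of all genes. Vnn1, a pantetheinase of the hepatocyte surface and a PPARA target, read 4074 in the control and 2611 in the deficient liver and was 1.56-fold lower. Its log2 ratio of -0.64 was beyond the spread of 0.18, and its second set read 1724 and 931, 1.85-fold lower. With loess the ratio of the brighter set was -0.57, just under 1.5-fold. Angptl4, a secreted inhibitor of lipoprotein lipase, read 1754 and 1381, a log2 ratio of -0.35.

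The others were closer. Fgf21, the hormone that the fasted liver secretes, read 280 and 250, a log2 ratio of -0.16. Creb3l3, which encodes the membrane-bound transcription factor CREB-H that acts with PPARA, read 3447 and 3046, a log2 ratio of -0.18. Pdk4, the kinase that shuts pyruvate out of oxidation, read 356 and 399, a log2 ratio of 0.17. None of these 3 was beyond the spread.

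Of 117 measured genes in lists of the rest of the pathway, 12 were lower and 6 higher by 1.5-fold or more, that is 10.3% and 5.13% against the 9.2% and 8.86% of all genes. The 17 other mitochondrial genes measured had a median of -0.034, and 0 passed 1.5-fold in either direction. The farthest from 0 were Acacb, whose product makes the malonyl-CoA that inhibits entry into mitochondria, at 0.52, and Mcee, of propionate breakdown, at -0.28. The 27 other peroxisomal genes had a median of -0.078, and 2 were lower and 1 was higher past 1.5-fold. Abcd2, a peroxisomal importer of acyl-CoA, read 72.3 and 27.2 and was 2.66-fold lower, and its other measured set was lower too. Nudt7, a peroxisomal hydrolase of CoA and its esters, read 2973 and 1480 and was 2.01-fold lower on its brightest set, with 2 of its 4 sets in the other direction. Acox3 was above the floor only in the deficient liver, at 27.4, and was at least 1.54-fold higher, a bound within 2 spread SDs.

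Of the other thioesterases, 7 were measured with a median of 0.24, and 0 passed 1.5-fold. Microsomal ω-oxidation had a median of -0.18 over 7 genes, with 2 lower (28.6%) and 0 higher. Over all genes, 9.2% were lower and 8.86% higher. Cyp4f14 read 419 and 263 and was 1.59-fold lower, and Cyp4a12a read 5401 and 3584 and was 1.51-fold lower. Cyp4a14, a strongly PPARA-responsive gene, read 16517 and 17224. Among further uptake and activation genes the median was -0.11 over 17, with 4 lower, or 23.5% against 9.2% of all genes, and 0 higher. Fabp5, another fatty acid binding protein, read 2582 and 1009 and was 2.56-fold lower, on both of its sets. Slc27a1, a fatty acid transport protein, read 114 and 31.7 with its 2 sets in opposite directions.

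Regulators of the pathway had a median of 0.098 over 25 measured genes. Of these, 2 were lower and 2 higher by 1.5-fold or more, 8.0% in each direction, which is below the shares of 9.2% and 8.86% over all genes. Ppara read 2260 in the control and 1559 in the deficient liver and was 1.45-fold lower, a log2 ratio of -0.54 that was beyond the spread of 0.18. All 3 of its sets were below 0, from -0.54 to -0.088. Hnf4a, a hepatocyte transcription factor that also binds DR1 repeats, read 3148 and 4850 and was 1.54-fold higher, with all 4 sets above 0. Foxa2 read 126 and 250 and was 1.98-fold higher. The coactivator gene Ncoa1 read 237 and 157 and was 1.51-fold lower, within 2 spread SDs. Fgfr1 was above the floor only in the control on its brightest set and was at least 3.79-fold lower, while its other measured sets were at -0.65 and -0.12.

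**Figure D4:**
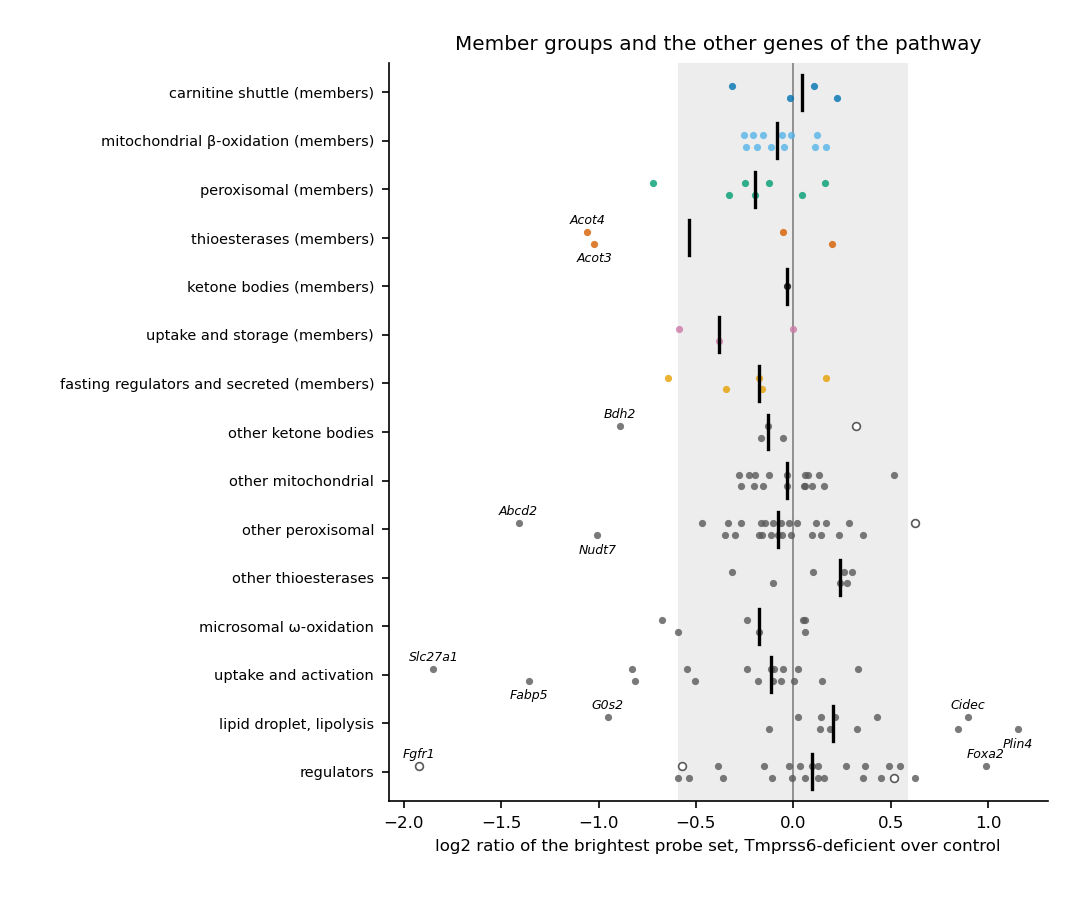
Log2 ratio of the brightest probe set of each gene, Tmprss6-deficient over control, for the 7 groups of members (coloured) and 8 lists of other genes of the pathway (grey). Black bars are medians, open circles are genes above the floor on 1 array that have only a bound, grey shading marks ratios within 1.5-fold, and genes with a log2 ratio beyond 0.88 in size are named. Both mitochondrial groups stay inside the shading, while the thioesterase members fall into a lower and a near-level pair.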

How the data were processed

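Liver RNA was column-purified and hybridised as biotin-labelled RNA to Affymetrix mouse arrays, per the labels' protocols. The authors deposited intensity signals, 1 per probe set. MAS5, which summarises each array alone and is noisy at dim signals, is the tool that the submitters' processing notes name, and no source used here gives its version. The deposited values have the same mean on both arrays with the lowest and highest 2% left out.

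Gene names came from the platform annotation (34958 of 45101 probe sets with 1 symbol, and 932 with several were left unnamed). Signals under the floor, the median of all but 64 control sets, were set to it, and log2 ratios are Tmprss6-deficient over control. A gene is its brightest set by mean log2 signal. Genes above the floor on 1 array have a bound against the floor. For the spread, the second brightest measured set of a gene was subtracted from the brightest, and the SD of these differences was divided by √2, within ranges of mean signal.

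The members and lists were chosen with earlier results of these data known. Named genes are the members, Tmprss6, up to 4 genes with the largest ratios of each pathway list, and Ppara and Cyp4a14. Slc16a1, Tat, Plin5, Lipa and Pnpla2 were added once values had been seen. Some genes of the lists are not reported here. The code was tested on simulated arrays, with Python 3.11.15, pandas 2.3.3 and statsmodels 0.14.6.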

Additional observations from a re-analysis of the deposited data

How the results depend on the processing

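No paired analysis was possible because each group holds 1 sample, and for the same reason no sample could be left out. Of 9 alternatives to scaling, floor and choice of probe set, all gave 4 or 5 members lower by 1.5-fold or more and 0 higher. Acot4, Acot3 and Eci2 passed 1.5-fold under each of the 9, Vnn1 under 8 and Cd36 under 6. Leaving out scaling could not change these ratios, since both arrays already had the same trimmed mean. Moving the floor to another percentile left them as they were, since their signals stayed above it. Acot3 and Eci2 have 1 probe set each, so the choice of probe set could not change theirs either. The size of the shift over all members depended on scaling. The median was -0.14 as reported, -0.060 with quantile normalization and -0.062 with loess. Those settings put the median of all genes above a log2 signal of 10 at 0.0031 and 0.0053, from -0.051. The peroxisomal median was -0.10 and -0.11 with quantile normalization and loess, the uptake and storage median -0.23 with quantile normalization, and the mitochondrial median -0.013 with loess. With the mean of all probe sets, the mitochondrial median was -0.030, the uptake and storage median -0.23 and Bdh1 0.17. Counting Ech1 and Eci2 as mitochondrial left the mitochondrial median at -0.085 and the peroxisomal at -0.20. Differences of dim probe sets are limited by signal over background, and variation between animals was not measured.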

Other observations

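Genes of the lipid droplet and of lipolysis, which hold and release the fatty acids that oxidation burns, had a median log2 ratio of 0.20 over the 12 that were measured. Of these, 3 were higher and 1 was lower past 1.5-fold, or 25.0% and 8.33%, against 8.86% and 9.2% of all genes. Plin4, a droplet coat protein, read 61.2 in the control and 136 in the deficient liver and was 2.22-fold higher. Cidec, which promotes droplet growth, read 412 and 767 and was 1.86-fold higher. Hilpda, a droplet inhibitor of lipolysis, read 22.9 and 41.1 and was 1.79-fold higher at a dim signal, within 2 spread SDs. G0s2, which inhibits adipose triglyceride lipase, read 2078 and 1074 and was 1.94-fold lower, on a single probe set. The lipase gene itself, Pnpla2, read 1009 and 1150. Plin5, a droplet protein that contacts mitochondria, read 1968 and 2645, with both sets above 0, and the lysosomal lipase gene Lipa read 1677 and 2100, with all 3 sets above 0. Cidec and Plin4 are also genes of fat cells. Of 8 fat cell markers, Adipoq, Lep and Cidea were below the floor on both arrays, Retn was above it only in the control at 27.7, Fabp4 read 784 and 690, Cidec itself is on the list, and 2 were not analysed. Without Cidec, the summed signal of the 2 other measured markers was 811 in the control and 701 in the deficient liver, and with it 1223 and 1468. Their part in these ratios was not tested.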
